A study of Mus musculus with 2 samples.

Results

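Natural killer (NK) cells of the mouse lung were described by scRNA-seq in 1 library from BLM (bleomycin)-injured lung and 1 from naive lung. They were selected on their own measured values, by a rule on unique molecular identifier (UMI) counts. A cell was taken with 3 or more UMIs of Ncr1, Klrb1c, Klre1, Klra8 and Eomes summed, at most 1 UMI of Cd3e, Cd3d and Cd3g, 0 UMIs of Cd79a and Ms4a1, and less than 0.5% of its UMIs from S100a8 and S100a9. The rule took 367 of the 8451 cells that passed the quality limits (no fewer than 200 genes, mitochondrial UMIs not above 15%), 123 from BLM lung and 244 from naive lung.

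NK cells are innate lymphocytes that kill infected or transformed cells without a rearranged antigen receptor. Perforin opens the target cell and granzymes start its death, while chemokines and IFN-γ from the NK cell call in and activate other immune cells. Whether an NK cell fires is set by a balance of activating and inhibitory receptors, many of them encoded by the Klr genes, and its identity depends on the transcription factors T-bet (Tbx21) and Eomes. The lung holds many circulating, mature NK cells, and the related type 1 innate lymphoid cells (ILC1) share several of their receptors but usually lack Eomes.

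The lungs came from wild-type C57BL/6N mice, and viable leukocytes, recognised by CD45, were isolated from them by cell sorting and sequenced with the BD Rhapsody whole-transcriptome kit. The BLM mice had received bleomycin into the trachea, were adult, age- and sex-matched and were sampled on day 15, and the naive mice had no treatment, so that the instillation itself and the drug cannot be told apart. Each library pooled equal numbers of cells from 3 mice. No file ties cells to mice, so each group is 1 sample, no test across animals was possible, and all intervals below are 95% intervals of the counts that cover counting error only.

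The BLM table held 22490782 UMIs in 4714 barcodes and 18019004 UMIs in 4062 barcodes made up the naive data. Of the barcodes, 22 occurred in both tables, and among NK cells 0 BLM cells and 4 naive cells carried such a barcode. The median depth was 2089 UMIs per BLM NK cell (quartiles 1629.5 and 2458.5) and 2142.5 per naive NK cell (1752 and 2634.25), and cells of over 3 times the median held 9.17% of BLM and 16.0% of naive NK UMIs. Summed over cells, the BLM NK cells gave 281523 UMIs and the naive NK cells 620112, so a gene with 0 UMIs could have reached 10.7 CPM (counts per 1000000 UMIs) in the BLM sum and 4.84 CPM in the naive sum.

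The sum of the 5 rule genes reached a median of 10 UMIs per selected BLM cell and 11 per selected naive cell. At the edge, 11 BLM and 9 naive cells held exactly 3 such UMIs and were taken, while 13 BLM and 12 naive cells held 2 and were not. Granzyme A (Gzma) stood at 6222 CPM in the BLM cells just inside and 1756 CPM in those just outside. In naive lung the levels were 1811 and 948 CPM. Cells with a single Cd3 UMI made up 4 of the BLM and 12 of the naive NK cells. No doublet caller was run, and the limits on Cd3, B cell and S100 genes were the barrier against mixed droplets. Of the cells with a rule sum of 3 or more, the Cd3 limit removed 19 BLM and 28 naive cells, the B cell limit 7 and 28, and the S100 limit 2 and 1.

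The label was checked on genes that the rule did not use. Gzma stood at 10511 CPM in BLM and 10039 CPM in naive NK cells, against 11.02 and 90.5 CPM in T cells. Perforin (Prf1) stood at 1439 and 1661 CPM, against 16.8 and 27.7 CPM in T cells. The further NK genes, which encode the granule protein Nkg7, the receptors Klrd1, Klrk1, Klrc1 and Il2rb, the adaptor Tyrobp, T-bet, granzyme B and Ccl5, all stood higher in NK cells than in T cells and B cells of the same library. The T cell receptor gene Trac stood at 14.2 and 35.5 CPM in NK cells against 702 and 672 CPM in T cells. Other T cell receptor genes were not near absent. In NK cells with an Eomes UMI, Trbc1 stood at 495 and 252 CPM and Trdc, of the γδ receptor, at 136 and 121 CPM. In those without one the levels were 563 and 328 CPM for Trbc1 and 98.3 and 82.0 CPM for Trdc. Trac alone thus does not tell whether γδ T cells were in the set. T cells with 3 or more UMIs of the rule genes, 19 in BLM and 24 in naive lung, lay between NK cells and the remaining T cells for Gzma (1147 and 1259 CPM) and Prf1 (198 and 321 CPM) and had Klrc1 at 356 and 404 CPM, next to 320 and 366 CPM in NK cells.

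**Figure D1:**
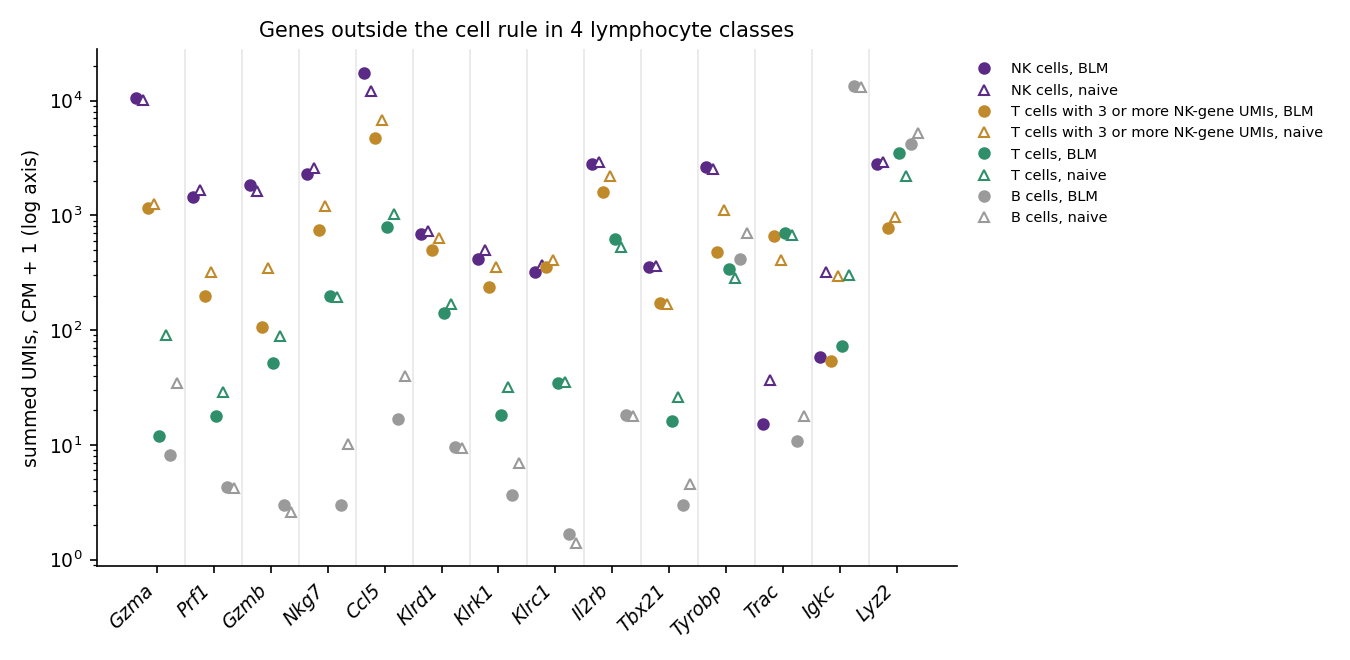
Summed UMIs as CPM + 1 on a log axis for 14 genes in NK cells, T cells with 3 or more UMIs of the NK rule genes, T cells and B cells, with filled circles for BLM and open triangles for naive lung. Gzma is at 10511 and 10039 CPM in NK cells, and Trac is highest in the T cell classes.

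NK cells made up a smaller part of the CD45+ cells of BLM lung. The share was 2.72% (123 of 4526 cells, exact binomial interval 2.26 to 3.23%) in BLM lung and 6.22% (244 of 3925 cells, 5.48 to 7.02%) in naive lung, a log2 ratio of -1.19 (-1.52 to -0.88). B cells also took a smaller share, 13.5% against 20.6%, while T cells took 15.0% against 13.2%. Among NK, T and B cells alone the NK share was 8.57% in BLM and 15.3% in naive lung, a log2 ratio of -0.83. Thinning the sum of the 5 rule genes to a depth of 1000 UMIs per cell, with the other limits unthinned, gave 2.22% and 5.11%. Cells under 1000 UMIs were left out, so these are shares of 4263 BLM and 3867 naive cells. Shares are of the cells captured, and a change in the number of NK cells and a change in the number of other leukocytes cannot be told apart.

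Across the transcriptome, NK cells of the 2 libraries were close. Genes with 20 or more UMIs over both libraries' NK cells were ranked, 5861 in all, by the log2 ratio of BLM over naive CPM. Of these, 131 (2.24%) were at least 2-fold higher and 469 (8.0%) at least 2-fold lower in BLM NK cells. The median log2 ratio was -0.13, and centring the ratios on it moved the counts to 173 higher and 352 lower. With 50 or more UMIs, 40 genes of 3192 were at least 2-fold higher and 97 lower, so low counts made up most of the calls. The interval of the ratio lay above 0 for 5.46% and below 0 for 7.76% of ranked genes.

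**Figure D2:**
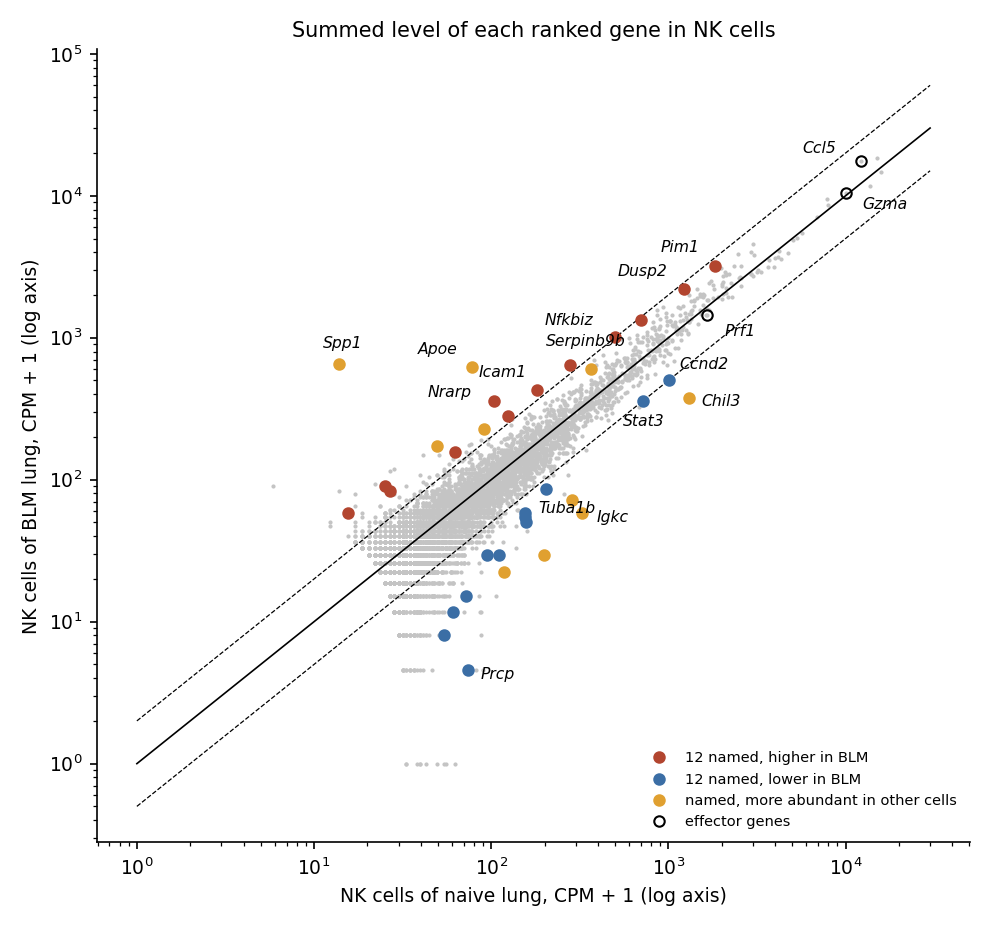
CPM + 1 of each of the 5861 ranked genes in naive (x) and BLM (y) NK cells, both on log axes, with the line of equality and dashed lines at 2-fold. Gzma and Prf1 sit near equality, Nrarp, Icam1 and Serpinb9b above the upper dashed line, and Stat3 and Ccnd2 on the lower one.

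The 12 genes furthest above 0 included a feedback inhibitor of Notch signalling, a serpin, an adhesion molecule and a nuclear IκB protein. Nrarp (chr2:25180758-25183339, GRCm38.p6), a Notch target gene whose product dampens Notch signalling, had 101 UMIs in BLM NK cells and 64 in the larger naive set. That was 359 against 103 CPM, a log2 ratio of 1.797 (1.33 to 2.27). A UMI was seen in 43.9% of BLM and 22.95% of naive NK cells, or 27.1% and 11.1% after thinning to 1000 UMIs. In B cells, the class taken as background, 0.654% and 1.61% of cells held one, at median depths of 1743 and 2019 UMIs. These B cells were chosen without any UMI of the Cd3 or rule genes. Here and below they can therefore understate stray NK and T cell transcripts. Nrarp was 55.2 times as high in BLM NK cells as in all other BLM cells. Its log2 ratio in T cells was 0.57 (-0.30 to 1.496).

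Serpinb9b (chr13:33027414-33040588), a close relative of the granzyme B inhibitor Serpinb9, stood at 646 CPM in BLM and 279 CPM in naive NK cells. The log2 ratio was 1.21 (0.90 to 1.52), and 39.8% and 20.9% of NK cells held a UMI, against 0.654% and 0.494% of B cells. Reads of such close relatives could have been split between genes by the counting. Serpinb9 itself differed less, with 2408 against 2008 CPM and a log2 ratio of 0.26, and so did the related Serpinb6b, with 1165 against 806 CPM and a log2 ratio of 0.53.

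NF-κB is held in the cytoplasm by IκB proteins, and its target genes include its own inhibitors. Icam1 (chr9:21015940-21028814), an adhesion molecule and classical target, stood at 430 CPM in BLM and 181 CPM in naive NK cells, a log2 ratio of 1.25 (0.87 to 1.63). Nfkbiz, a nuclear IκB protein, stood at 1009 and 500 CPM (log2 ratio 1.01, 0.78 to 1.25). Nfkbia, which encodes IκBα, stood at 1563 and 866 CPM (0.85, 0.67 to 1.04), and Tnfaip3, which encodes the inhibitor A20, at 1815 and 1340 CPM (0.44, 0.28 to 0.60). Icam1 and Nfkbiz were named for their high ratios and Nfkbia after its value was seen, so their shared direction was set by the choice. They form no list that was counted as a group. In T cells the log2 ratio was -0.18 (-0.53 to 0.17) for Icam1, 0.43 for Nfkbiz, 0.61 for Nfkbia and 0.14 for Tnfaip3.

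The 250 bases before the start of Nfkbia and Icam1 (RefSeq, GRCm38.p6) are shown as promoters of known NF-κB target genes among those described. The motif GGAANTTCC was searched on both strands, with a κB consensus of 10 bases that overlaps it in Nfkbia, and capitals mark the matches.
Nfkbia, chr12:55492648-55492897, minus strand: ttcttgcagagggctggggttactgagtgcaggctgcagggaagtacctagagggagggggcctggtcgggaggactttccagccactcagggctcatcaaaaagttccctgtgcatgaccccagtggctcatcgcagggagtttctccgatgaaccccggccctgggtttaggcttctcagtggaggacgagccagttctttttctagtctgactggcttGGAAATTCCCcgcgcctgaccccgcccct
Icam1, chr9:21015690-21015939, plus strand: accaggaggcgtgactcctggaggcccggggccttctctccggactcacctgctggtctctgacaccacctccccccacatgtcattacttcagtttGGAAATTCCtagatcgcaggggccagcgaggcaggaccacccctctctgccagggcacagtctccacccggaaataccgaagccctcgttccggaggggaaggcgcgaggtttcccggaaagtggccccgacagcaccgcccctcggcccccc
The match begins 29 bases before the start in Nfkbia and 153 bases before it in Icam1. Of 32851 promoter windows of this length, 0.813% held GGAANTTCC and 1.21% held the longer consensus. One of 2 windows of Tnfaip3 also held GGAANTTCC, and the windows of Nrarp, Serpinb9b, Dusp2, Pim1 and Ifng held neither motif. Nfkbiz, Rgs1 and Cd69 were not searched. The motifs were chosen with the results known, and a match is only a description of the letters.

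The remaining genes of this group were of mixed function. Dusp2, a phosphatase that switches off MAP kinases, stood at 2217 CPM in BLM and 1222 CPM in naive NK cells (log2 ratio 0.86, 0.70 to 1.01), and its ratio in T cells was -0.07 (-0.22 to 0.09). Pim1, a survival kinase induced by cytokines, stood at 3183 and 1832 CPM (0.80, 0.67 to 0.92). Bbc3, which encodes the pro-apoptotic protein PUMA, had a log2 ratio of 1.35 from 44 and 38 UMIs, or 0.81 among cells with an Eomes UMI. Tmsb10, an actin-binding thymosin, stood at 1336 and 703 CPM (0.93), and the pseudogene Gm9844 at 281 and 124 CPM (1.18). Both of the latter were also higher in BLM T cells, with log2 ratios of 0.68 and 1.03. Bsdc1, the pseudogene Gm10269 and the transcriptional regulator Zfp281 completed the 12 with 16 to 25 UMIs in BLM NK cells, and with intervals from 0.68 to 3.33 their sizes are poorly known.

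The 12 genes furthest below 0 were led by genes of low counts, followed by a cyclin and a cytokine-activated transcription factor at firmer depth. Ccnd2, the cyclin that takes lymphocytes into the cell cycle, had 142 UMIs in BLM and 624 in naive NK cells, or 504 against 1006 CPM. Its log2 ratio was -0.996 (-1.27 to -0.73), and 52.0% of BLM and 75.4% of naive NK cells held a UMI, or 35.0% and 56.4% after thinning. Stat3, a transcription factor activated by cytokine receptors, stood at 355 and 721 CPM, with a log2 ratio of -1.02 (-1.35 to -0.71). A Stat3 UMI was seen in 46.3% of BLM and 70.9% of naive NK cells, against 32.2% and 46.0% of B cells. Both genes were also lower in BLM T cells, with log2 ratios of -0.37 for Ccnd2 and -0.53 for Stat3.

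The lysosomal peptidase gene Prcp had 1 UMI in BLM NK cells and 45 in naive NK cells (log2 ratio -4.35, interval -9.69 to -1.80), while its ratio in T cells was 0.07. Ormdl3, a regulator of sphingolipid synthesis, had 2 and 33 UMIs, and Cmah, which makes the sialic acid Neu5Gc, had 3 and 37. With so few BLM UMIs only the intervals are informative, and they end at -0.94 for Ormdl3 and -0.83 for Cmah. Arrdc3 stood at 49.7 and 156 CPM (-1.65) and Cpt1a, which carries fatty acids into mitochondria, at 56.8 and 153 CPM (-1.43), which became -0.83 among cells with an Eomes UMI and -0.96 with 4 or more rule UMIs. Arrdc3 was lower in BLM T cells too, with a log2 ratio of -1.40 (-1.90 to -0.92). Tmem64, Ifitm10, Fam168a, Vmp1 and the tubulin gene Tuba1b made up the rest, with log2 ratios from -2.32 to -1.25. Tuba1b depended on a few cells, since 15 of its 96 naive UMIs lay in 1 cell and its ratio moved from -1.54 to -0.83 without the cells of over 3 times the median UMIs.

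**Figure D3:**
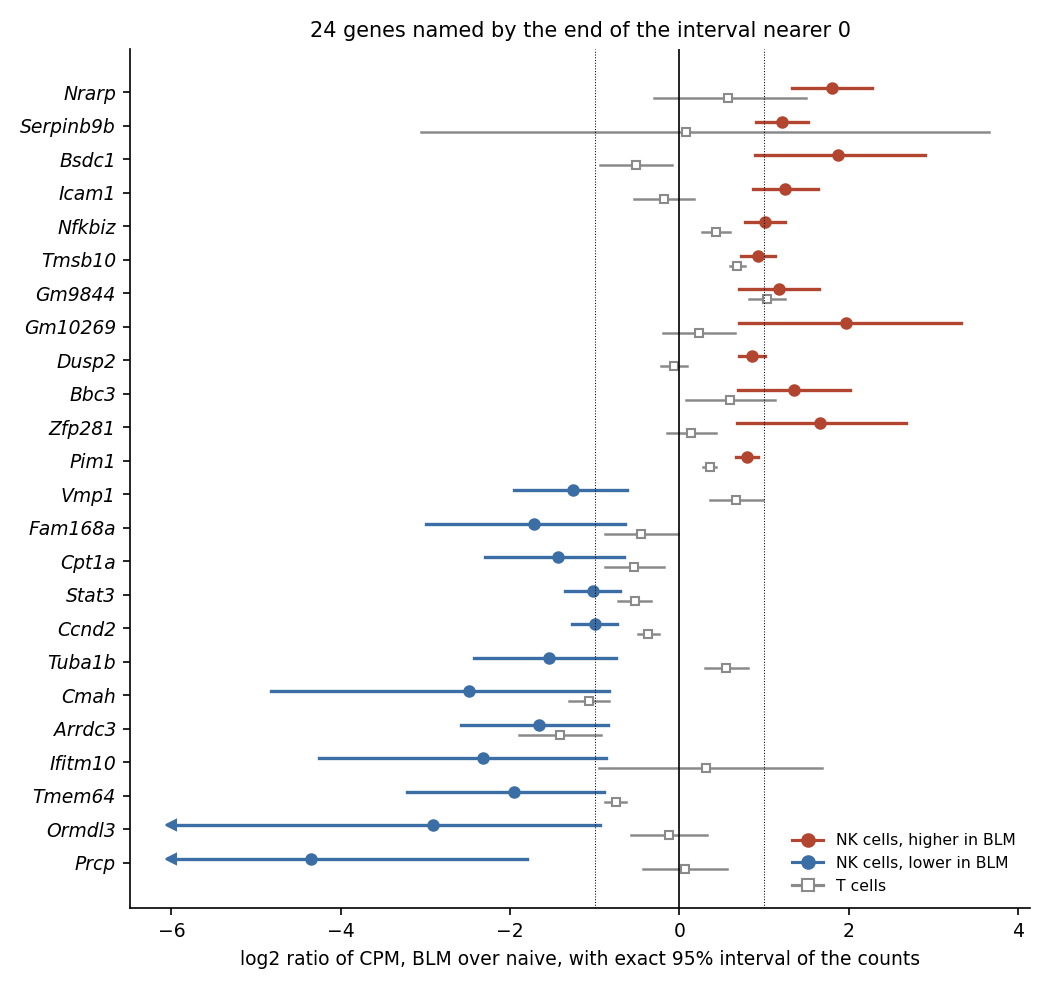
Log2 ratios of BLM over naive CPM with exact 95% intervals of the counts for the 12 genes furthest above and the 12 furthest below 0 in NK cells (filled circles) and the same genes in T cells (open squares). Arrowheads mark intervals that run past -6, and dotted lines mark 2-fold. Nrarp, Icam1, Dusp2, Prcp and Ifitm10 are among the genes with T cell intervals that include 0.

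Ranked genes of the killing machinery differed by less than 2-fold. Of 17 granule protein and death ligand genes 13 were ranked, with 0 at least 2-fold higher, 0 at least 2-fold lower and a median log2 ratio of 0.16. Over all ranked genes 2.24% were at least 2-fold higher and 8.0% lower, so a list of this size would hold few calls in any case. The same shares stand beside the counts of the lists below. The interval lay above 0 for 7 and below 0 for 3 of them, and the summed ratio was 0.09 (0.05 to 0.14). Gzma was in 93.5% of BLM and 94.3% of naive NK cells, and its ratio was 0.07 (0.00 to 0.13), or -0.06 among cells with an Eomes UMI. Levels per cell were broad, with quartiles of 6946 and 16904 CPM in BLM and 6422 and 17199 CPM in naive NK cells. Granzyme B (Gzmb) stood at 1840 and 1643 CPM (0.16). Prf1 had a ratio of -0.21 (-0.38 to -0.04), and was seen in 78.9% of BLM and 90.6% of naive NK cells. Nkg7, needed for granule release, stood at 2309 and 2579 CPM (-0.16), and Srgn, the proteoglycan that packs granules, at 2192 and 1800 CPM (0.28). The Prf1 and Nkg7 ratios lie close to the median of all ranked genes, and that of Nkg7 was -0.03 after centring.

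Chemokine and cytokine genes leaned towards BLM lung. Of 8 ranked members of 13, 1 was at least 2-fold higher, 0 were 2-fold lower, the interval lay above 0 for 5 and the median log2 ratio was 0.47. Ccl5, which attracts T cells and monocytes, stood at 17466 CPM in BLM and 12211 CPM in naive NK cells (log2 ratio 0.52, 0.46 to 0.57). In single cells its quartiles were 8528 and 26213 CPM in BLM and 7723 and 18717 CPM in naive lung. In T cells the ratio was -0.38. Xcl1, which attracts cross-presenting dendritic cells, stood at 416 and 292 CPM (0.51). A single cell held 22.2% of its BLM UMIs, against 5.52% for the top naive cell. The chemokine genes Ccl4 and Ccl3 had ratios of 0.32 and 0.42.

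Ifng, the signature NK cytokine gene, was the 1 member past 2-fold. It had 50 UMIs in BLM and 47 in naive NK cells, or 178 and 75.8 CPM, a log2 ratio of 1.23 (0.62 to 1.83). A UMI was seen in 20.3% of BLM and 16.0% of naive NK cells, or 14.0% and 7.76% after thinning. It was seen in 0 of 612 BLM and 0 of 809 naive B cells, which allows shares of up to 0.490% and 0.371%. Cells with 2 or more UMIs numbered 14 in BLM and 4 in naive lung. Ccl4 was also uneven among cells, with 27.2% of its BLM UMIs in 1 cell.

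Receptor genes as groups had medians near that of all genes. Among 15 ranked activating receptors, 0 were 2-fold higher and 1 was 2-fold lower (median -0.07), and among 14 ranked inhibitory receptors, 2 were higher and 1 lower (median -0.05). The activating list also holds Klrb1b, which encodes an inhibitory receptor, whose ratio of 0.43 was the highest of the list and became 0.10 among cells with an Eomes UMI. Il2rb, a chain of the IL-15 receptor, stood at 2788 and 2935 CPM (-0.07). Klrk1, which encodes the activating receptor NKG2D, stood at 419 and 498 CPM (-0.25), and Klrd1, the CD94 partner of the NKG2 chains, at 682 and 731 CPM (-0.10). The inhibitory receptors past 2-fold were Tigit, which binds CD155, at 188 and 87.1 CPM (1.11, 0.54 to 1.69), and Klra5, with 22 and 10 UMIs in 8 and 4 cells. Tigit was also higher in BLM T cells (1.99). The members at least 2-fold lower were Cd160, with 5 and 24 UMIs, and Pilra, with 6 and 37 UMIs.

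The Ly49 receptors, encoded by the Klra genes, bind MHC class I and are switched on in a patchwork, so that each NK cell carries its own set. A median of 3 of the 8 Klra genes Klra1, Klra3, Klra4, Klra5, Klra7, Klra8, Klra9 and Klra10 was seen per cell in both libraries, and at most 6. None was seen in 9.76% of BLM and 8.61% of naive NK cells, and 4 or more in 35.0% and 28.7%. Klra8 is a rule gene, so these counts per cell were partly set by the selection. Klra9 stood at 1059 and 1121 CPM (-0.08), Klra4 at 1051 and 866 CPM (0.28) and Klra7 at 668 and 576 CPM (0.21). These genes are near-identical in places and their reads could be split among them. Klra8 encodes the activating receptor Ly49H and was used by the rule. As a description, it stood at 2213 and 1448 CPM, a ratio of 0.61, while the other 4 rule genes were lower in BLM NK cells, from -0.26 for Eomes and -0.30 for Ncr1 to -0.43 for Klrb1c.

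Among 21 ranked transcription factors 1 was 2-fold higher and 0 were lower, with a median of 0.08. The interval lay above 0 for 5 and below 0 for 1, and the summed ratio was 0.13 (0.06 to 0.20). Tbx21 stood at 355 and 363 CPM, Irf8 at 2614 and 2559 CPM (0.03) and Id2, which blocks the B and T cell fates, at 1051 and 911 CPM (0.21). The member past 2-fold was Lef1, a partner of β-catenin, with 27 and 25 UMIs (1.25, 0.41 to 2.10). Bhlhe40 had a ratio of 0.71 and Hopx of 0.72, while Gata3, with 16 and 62 UMIs, had one of -0.81. Lef1 and these 3 were chosen after their values were seen.

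Summed levels of maturation genes were close. NK cells lose CD27, Kit and Il7r and gain CD11b (Itgam), Klrg1, Cma1 and Cx3cr1 as they mature. UMIs of the late list summed to 8440 CPM (8104 to 8786) in BLM and 8226 CPM (8002 to 8455) in naive NK cells, 4.01 and 4.46 times the early list. The log2 ratio was 0.04 (-0.03 to 0.11) for the late list and 0.19 (0.04 to 0.33) for the early list, and 0.07 (-0.14 to 0.27) for the early list among cells with an Eomes UMI. The early list's sum and its median over 10 ranked members (-0.24) differ in sign. More early than late UMIs were held by 10 BLM cells and 23 naive cells. Single members differed, with Itgb2, the β chain of CD11b and LFA-1, at 682 and 1072 CPM (-0.65, -0.89 to -0.42) and Ly6c2 at 934 and 713 CPM (0.39, 0.16 to 0.61). The ratio of Itgb2 in T cells was 0.30 (0.14 to 0.47). Of the early list, Ctla2a, a cathepsin inhibitor, stood at 359 and 219 CPM (0.71), with 1.74 in T cells.

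Cells without an Eomes UMI numbered 51 of the BLM and 87 of the naive NK cells, and a UMI of the ILC1-associated list was held by 32 and 59 of them. A missing transcript at this depth does not show that the gene is off. Cxcr6, a receptor of tissue-resident lymphocytes, was seen in 8 of 87 naive cells without Eomes (9.20%, 4.05 to 17.3%) and in 0 of 157 with it, which allows up to 1.91% by a limit of 3 counts, or 2.32% by the exact interval. In BLM lung it was seen in 0 of 51 cells without Eomes, which allows up to 5.88% by the same limit, or 6.98% by the exact interval, so a difference was not detectable at this number of cells. Il7r stood at 161 CPM in BLM and 289 CPM in naive cells without Eomes, against 35.4 and 41.2 CPM in cells with it. Gzma was lower in naive cells without Eomes (7574 CPM) than with it (11510 CPM), and stood at 9678 and 11060 CPM in BLM lung. Whether these are ILC1 or NK cells with an undetected Eomes transcript was not tested.

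Several adhesion and homing genes stood lower in BLM NK cells. Of 23 ranked members 1 was 2-fold higher and 0 were lower, the median was -0.29, and the interval lay below 0 for 8 members and above 0 for 4. Itgal, the α chain of LFA-1, stood at 678 and 929 CPM (-0.45), and Ccr2, a receptor for monocyte-attracting chemokines, at 455 and 627 CPM (-0.46). Itga4 had a ratio of -0.50, Spn, which encodes CD43, of -0.53 and Cd44 of -0.79. In T cells the ratios were 0.39 for Ccr2 and 0.23 for Cd44. Itgb1 did not follow, with 821 and 834 CPM (-0.02). Cxcr4, the receptor for Cxcl12, was higher, at 1012 and 722 CPM (0.49), and the activation marker Cd69, which keeps lymphocytes in tissue, was past 2-fold with 25 and 20 UMIs (1.46, 0.55 to 2.39). In T cells Cd69 had a ratio of 1.17. Ccr2, Itga4, Spn, Cd44, Cxcr4 and Cd69 were chosen with their values known.

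Genes induced within minutes of stimulation leaned towards BLM lung. Of 24 ranked members 0 were 2-fold higher and 0 were lower, with a median of 0.29. The interval lay above 0 for 11 of them and below 0 for 1. Among the higher ones were Rgs1, which damps chemokine receptor signals, at 980 and 537 CPM (0.87), the orphan receptor gene Nr4a1 at 1492 and 964 CPM (0.63) and Zfp36l2 at 1961 and 1537 CPM (0.35). The AP-1 genes Junb and Jund had ratios of 0.40 and 0.32, while Fos, with 104 and 285 UMIs, and Jun, with 52 and 125 UMIs, had ratios of -0.32 and -0.13, and the member below 0 by its interval, Rgs2, stood at 1247 and 1474 CPM (-0.24). Rgs1, Nr4a1, Junb, Jund, Fos and Jun were chosen with their values known.

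Cytokine receptor and kinase genes had 1 member of 27 past 2-fold higher and 3 lower (median -0.08). The higher one was Cish, a feedback inhibitor of STAT5, with 10 and 11 UMIs (1.002, -0.39 to 2.38). Besides Stat3, the lower members were Stat5b, with 12 and 56 UMIs (-1.08, -2.12 to -0.17), and Ifnar2, with 6 and 27 UMIs (-1.03, -2.60 to 0.28). The IFN-γ receptor Ifngr1 stood at 1691 and 1574 CPM (0.10) and Jak1 at 760 and 761 CPM. The TGF-β list, of interest because this cytokine restrains NK cells and drives fibrosis, had 1 member of 12 higher and 1 lower (median -0.26). Pmepa1, a feedback inhibitor, had 43 and 47 UMIs (1.01, 0.38 to 1.64), and Skil, another, stood at 369 and 234 CPM (0.66). Cd9 had a ratio of -1.05, but 23.8% of its naive UMIs lay in 1 cell and the ratio was -0.65 without the cells with 2% or more macrophage UMIs and -0.11 among cells with an Eomes UMI.

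The cell cycle list had a median of -0.59, with 0 of 13 ranked members 2-fold higher, 3 lower (Rrm2, Mcm3 and Tuba1b) and the interval below 0 for 8. Rrm2, a subunit of ribonucleotide reductase, had 1 and 28 UMIs, and 18 of the 28 lay in 1 naive cell. The median moved to -0.20 without the cells of over 3 times the median UMIs, which held 26.0% of the naive cell cycle UMIs, so it rested in part on those 9 naive cells. Mki67, a marker of cycling cells, had 11 UMIs in BLM and 22 in naive NK cells.

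Interferon-stimulated genes (20 ranked, 0 higher, 1 lower, median -0.03), nuclear oxidative phosphorylation genes (32 ranked, 1 higher, 1 lower, -0.02), glycolysis and hypoxia genes (17 ranked, 0 higher, 1 lower, -0.13) and adaptor genes (19 ranked, 0 higher, 0 lower, -0.04) had medians near that of all ranked genes. MHC class I presentation genes did so as well (19 ranked, 0 higher, 0 lower, -0.14), with H2-D1 at 4060 and 4214 CPM. Among 23 actin and S100 genes 0 were past 2-fold (median -0.11), while the interval lay below 0 for 9 and above 0 for 4 and the summed ratio was -0.12 (-0.15 to -0.09). Actb stood at 11722 and 13741 CPM (-0.23), and its ratio in T cells was 0.49.

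**Figure D4:**
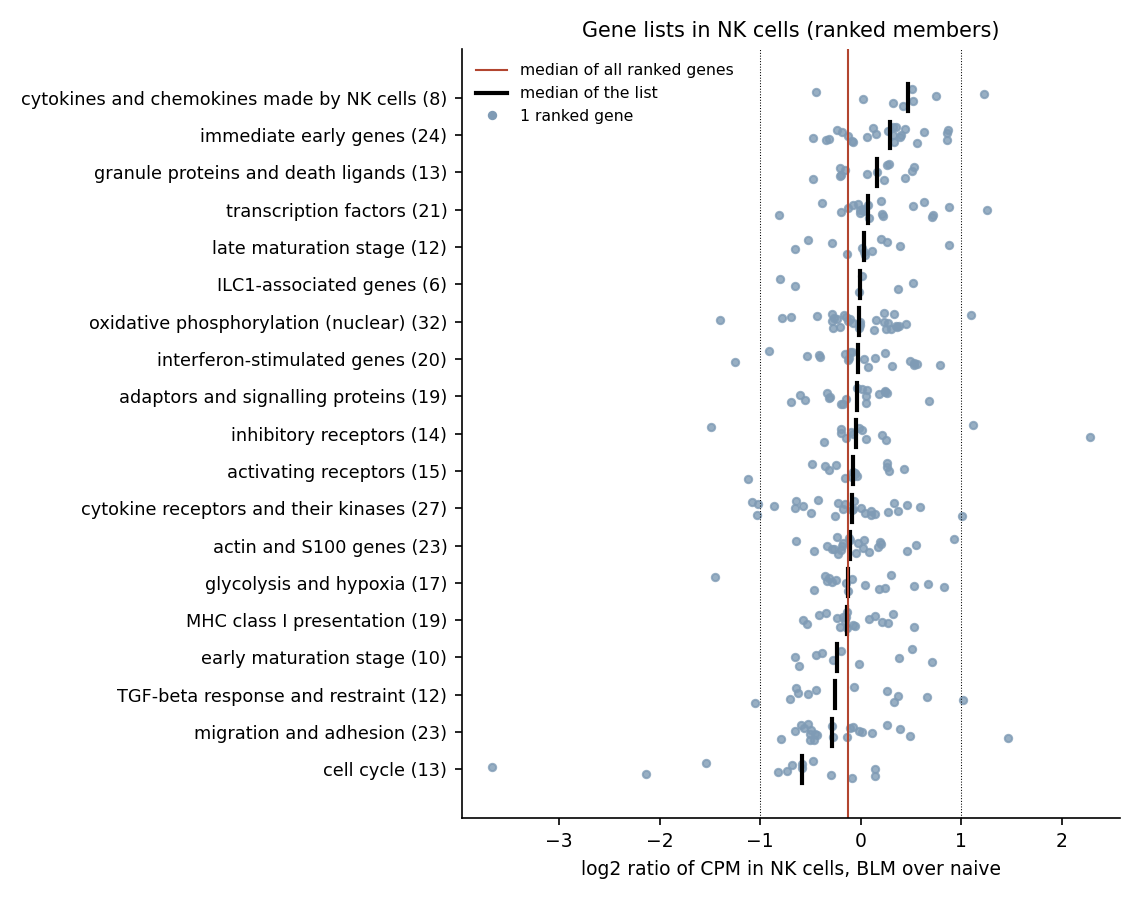
Log2 ratios in NK cells of the ranked members of 19 gene lists, 1 point per gene, with the number ranked in brackets, a black bar at each median, a red line at the median of all ranked genes and dotted lines at 2-fold. Cytokines and chemokines have the highest median (0.47) and the cell cycle the lowest (-0.59) of these 19, though the latter was -0.20 without the cells of over 3 times the median UMIs, above migration and adhesion at -0.37.

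Genes from lists of other cell types were seen in NK barcodes, and whether each transcript came from another cell was not tested. The macrophage and monocyte list summed to 8891 CPM in BLM and 8573 CPM in naive NK cells, with 22 of 22 members seen in each, C1qa at 114 and 25.8 CPM, 7 of 20 ranked members 2-fold higher and 4 lower. The T cell list, which holds Trbc1, summed to 938 and 698 CPM with 5 and 1 of 15 members at 0. The B cell list summed to 181 and 514 CPM with 6 and 3 of 10 at 0. Neutrophil, dendritic cell and ILC2 lists summed to 288 and 456, 835 and 1288, and 391 and 390 CPM. The rule held Cd79a and Ms4a1 at 0 and limited Cd3 and S100 UMIs. The T cell, B cell and neutrophil values were thus partly set by the selection. Without rule genes the T cell list summed to 924 and 679 CPM and the neutrophil list to 192 and 335 CPM. Basophil and mast cell genes had 7 of 8 members at 0 in each library, and stromal, epithelial, red cell and platelet genes summed to 135 and 103 CPM. The part of transcripts from other cells in the ratios above was not tested beyond the values without deep or macrophage-rich cells. Most of the macrophage sum lay in a few deep barcodes. The 2 BLM and 9 naive NK cells with over 3 times the median UMIs, 6739 to 23012 each, held 71.0% and 73.3% of it. Lyz2, a lysozyme of myeloid cells, was nonetheless seen in 81.3% of BLM and 80.3% of naive NK cells, next to 57.7% and 53.8% after thinning and 54.6% and 57.4% in thinned B cells.

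Genes more abundant in other cells held the largest ratio among the named genes. Spp1, which encodes osteopontin and is made by macrophages, had 183 UMIs in BLM and 8 in naive NK cells (5.65, 4.65 to 6.89), but 138 of the 183 lay in 1 cell and the ratio ran from 5.55 without the cells of over 3 times the median UMIs to 8.45 among cells with an Eomes UMI. It was in 18.7% of BLM NK cells and 19.1% of BLM B cells, and in T cells the ratio was 5.43. Apoe had 143 of 175 BLM UMIs in 1 cell and a ratio of 3.01, which ran from 2.11 without the cells with 2% or more macrophage UMIs to 5.79 with 4 or more rule UMIs. The other genes higher in BLM, Fn1, Fabp5 and Ctsb, had T cell ratios of 3.15, 1.97 and 1.07, and Fabp5 went from 1.33 to 0.56 without the macrophage-rich NK cells. On the lower side, the immunoglobulin gene Igkc was in 13.0% of BLM and 48.8% of naive NK cells with a ratio of -2.505, next to -2.07 in T cells. The alveolar macrophage gene Chil3 had a ratio of -1.79, and Mt2, Plet1 and Slpi ones of -2.80, -1.998 and -2.47. Among cells with an Eomes UMI these became -0.48 for Chil3, -1.13 for Mt2, -0.81 for Plet1 and -1.57 for Slpi, and Mt2 was -0.98 with 4 or more rule UMIs. Trbc1, a T cell receptor gene of the T cell list chosen after its value was seen, stood at 522 and 281 CPM in NK cells (0.90, 0.57 to 1.22), above 3.94 and 4.77 CPM in B cells, and its T cell ratio was 0.03 (-0.13 to 0.18).

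**Figure D5:**
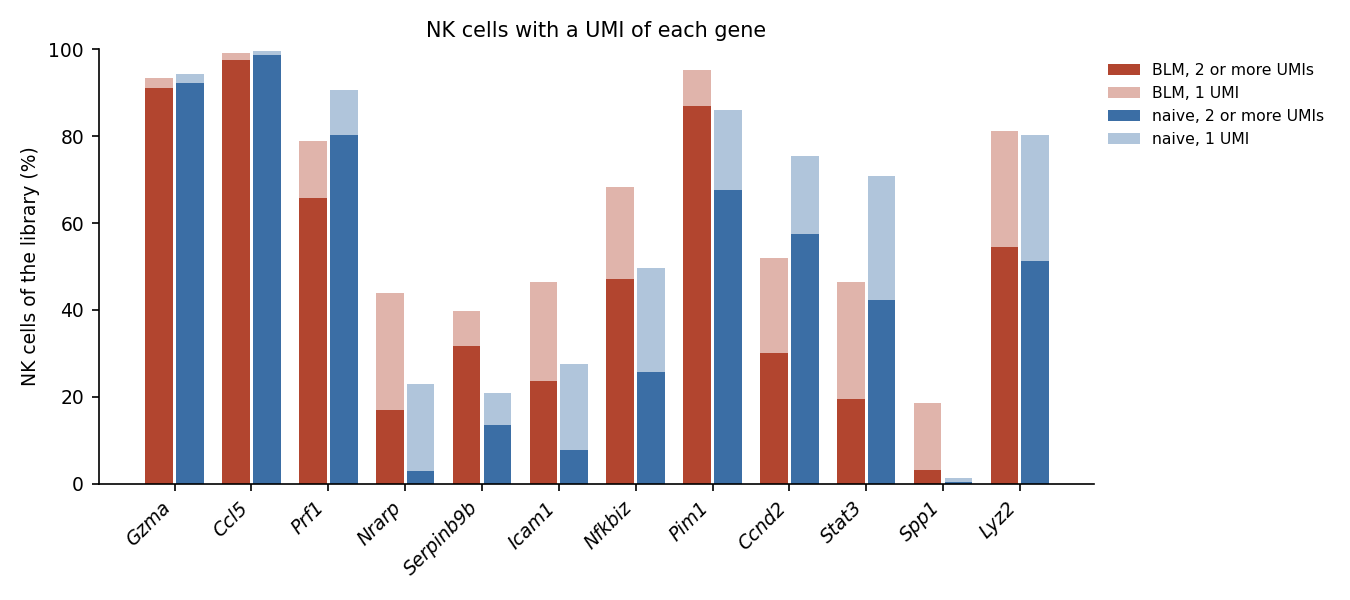
Percentage of NK cells with 2 or more UMIs (dark) and 1 UMI (light) of each gene, with BLM in red and naive in blue. Gzma and Ccl5 are in over 90% of NK cells of both libraries, Nrarp is in 43.9% of BLM and 22.95% of naive NK cells, and most cells with Spp1 hold a single UMI.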

How the data were processed

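The deposited files hold whole-number UMI counts per cell and gene, which the authors made with the BD Rhapsody analysis pipeline 1.8 (GRCm38, GENCODE vM19, per the file headers). Raw counts were summed over the NK cells of each library, and a gene absent from 1 table counted as 0. Levels are CPM of the sums with exact Poisson intervals. Log2 ratios of BLM over naive CPM have exact conditional intervals, and shares exact Clopper-Pearson intervals, all at 95%. With 1 library per group no test was made, and a call means at least 2-fold among genes with 20 or more UMIs. Thinned shares are exact hypergeometric means at 1000 UMIs. T cells had 2 or more Cd3 UMIs, under 3 rule gene UMIs and no UMI of Cd79a and Ms4a1. B cells had 2 or more UMIs of Cd79a and Ms4a1 and no UMI of the Cd3 or rule genes. The S100 limit applied to both.

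The members, lists and rules were chosen with earlier results of these data known. Named were the 12 highest and 12 lowest genes by the interval end nearer 0, seen in 10% or more of NK cells of the higher library and at 0.5 or more of the level in other cells. Added were 5 per side that failed only the last criterion, and the 4 ranked members with the most UMIs of each list. Alternatives changed the mitochondrial, rule, Cd3 and UMI limits, the centring, and left out deep, macrophage-rich or Eomes-negative cells. The Python 3.11.15 code (numpy 2.4.6, scipy 1.17.1, pandas 2.3.3) was tested on simulated data. Some members of the lists are not reported here.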

Additional observations from a re-analysis of the deposited data

Results flagged for a closer look

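The log2 ratio of BLM over naive CPM lay on opposite sides of 0 in NK cells and T cells for some named genes, with both intervals clear of 0 and the ratios at least 1 apart. The difference itself was not tested, because each group is 1 library. Gzma had a ratio of 0.066 in NK cells and -3.04 in T cells, where it stood at 11.02 CPM in BLM and 90.5 CPM in naive lung. Cells that met the B cell and S100 limits, with no rule gene UMI and at most 1 Cd3 UMI, held 9.78 and 34.6 CPM. The BLM T cell level was thus near the level in those cells. The part of stray transcripts in the T cell ratio was not tested. Among NK cells with an Eomes UMI the Gzma ratio was -0.06. Klrb1b, which encodes an inhibitory receptor, had ratios of 0.43 and -1.14, and its NK ratio was 0.10 among cells with an Eomes UMI. Bsdc1 had ratios of 1.88 and -0.51, from 25 and 15 UMIs in NK cells. Vmp1, an autophagy gene, had ratios of -1.25 and 0.67. Tuba1b had ratios of -1.54 and 0.56, and Stmn1, which regulates microtubules, of -0.68 and 0.51. Without the NK cells of over 3 times the median UMIs the NK ratio was -0.83 for Tuba1b and 0.03 for Stmn1.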

How the results depend on the processing

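The lower NK share in BLM lung kept its direction under every alternative, with a log2 ratio of -0.83 among NK, T and B cells against -1.19 among all cells. The counts of genes at least 2-fold higher and lower, 131 and 469, became 274 and 964 with 10 or more UMIs and 40 and 97 with 50 or more, as more or fewer low genes were ranked. The late maturation list went from 0.037 to -0.051 among cells with an Eomes UMI. The median of the neutrophil list went from -1.06 to 0.037 without cells of over 3 times the median UMIs, an alternative chosen after seeing the data. Of the alternative values, 282 of the gene lists and 1219 of the named genes moved by less than the interval or tolerance set for them. Another 29 and 68 moved further, and 1 value, that of the neutrophil list, was classed as reversed. Other list medians changed sign without that class. With 10 or more UMIs the stromal list went from 0.48 to -0.85 and the ILC2 list from -0.61 to 0.14. Among cells with an Eomes UMI, glycolysis and hypoxia went from -0.13 to 0.19. Several medians near 0 crossed it too. Further moves were 1 of the NK share, 4 of the counts and 1 of the maturation lists, given above. No paired analysis was possible because each group is 1 library. Depth limits the ratios of genes with few UMIs, and the pooled mice give no spread between animals.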
